A study of Rattus norvegicus with 6 samples.

Results

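The genes described here encode enzymes and helpers that process and crosslink collagen. They are Lox, Loxl1, Loxl2, P4ha1, P4ha2, P4ha3, Plod1, Plod2, Serpinh1 and Pcolce, taken as a fixed list and found by their symbols. The list was chosen with earlier results of these data known. All 10 were among the 19616 genes of the expression table. RNA was sequenced from the livers of 6 male SD (Sprague-Dawley) rats, 1 library per rat. The FL group (rats FL2, FL5 and FL12) was injected intraperitoneally with carbon tetrachloride (CCl4), a solvent toxic to hepatocytes that leads to fibrosis, mixed with olive oil. Each dose was 2 mL/kg, given 2 times weekly over 5 weeks. The CL group (rats CL5, CL6 and CL7) was given an equal volume of olive oil, and the age of the rats is not given in the sources used here. Expression is in FPKM, fragments per kilobase of transcript scaled to the mapped fragments of the library. The levels of different genes are set side by side on this basis, though how well each gene was captured was not tested. Where the rats are not named, values follow the order CL5, CL6, CL7 and FL2, FL5, FL12.

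Collagen chains are modified in the endoplasmic reticulum before they fold into a triple helix. Prolyl 4-hydroxylases stabilize the helix, lysyl hydroxylases prepare lysines for crosslinks, and the chaperone Hsp47 binds the folded helix. Outside the cell, the ends of procollagen are cut off and lysyl oxidases join the fibrils by covalent crosslinks. In the injured liver, fibrillar collagen comes mainly from activated hepatic stellate cells and portal fibroblasts, and crosslinked scar is known to be stiff and hard to degrade.

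The groups were compared to ask which steps of collagen processing differed at the RNA level in fibrotic liver. Pcolce, Loxl1, Plod2 and Loxl2 were upregulated in the FL group, by about 7.53, 9.06, 6.44 and 2.44-fold. The 2 main prolyl 4-hydroxylase genes, P4ha1 and P4ha2, had nearly equal means in both groups. Serpinh1 lay at the 2-fold limit, while Lox and Plod1 were not called. Genes were called upregulated or downregulated (DEGs) at 2-fold or more with an adjusted p under 0.05, in limma on log2(FPKM + 0.1) over the 14864 genes that reached a mean of 0.1 FPKM. On this scale the fold change of a gene with low FPKM is understated.

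Of the 10 members 9 could be tested, since P4ha3 lay below the filter. Among the 9, 4 were upregulated and 0 downregulated. At an unadjusted p under 0.05 in limma, 6 were higher and 0 lower, against 31.5% and 4.04% of the tested genes, shares to be kept in mind for the lists below. Among the tested genes as a whole, 9.29% were upregulated and 0.935% downregulated. With no limit on the fold, 5 members were higher and 0 lower, beside 16.9% and 1.94% of the tested genes. The groups did not overlap for 6 members, each higher in the FL group, and for 0 members in the lower direction. The same was true of 35.7% of the tested genes in the higher and 4.78% in the lower direction. The median log2 fold change was 0.9995 for the 9 members and 0.29 for the tested genes. Median scaling made these 0.78 and 0.08, and quantile normalization 0.80 and -0.04. Because each library is bulk liver, a difference in the number of cells of a type and one in RNA per cell cannot be told apart.

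**Figure D1:**
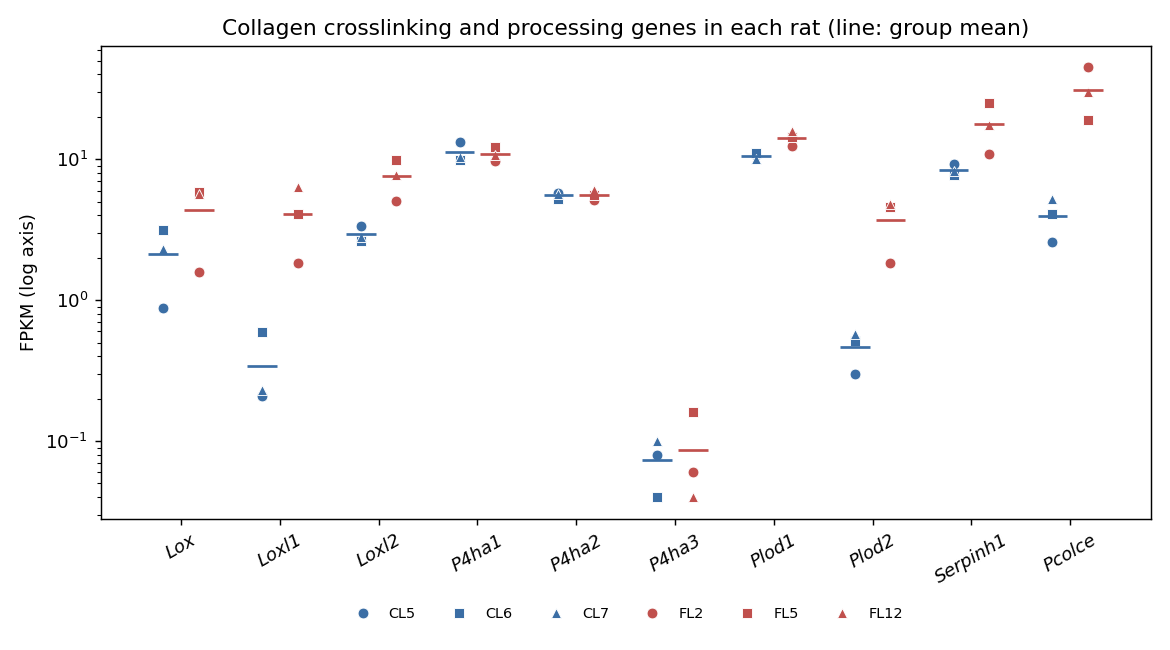
FPKM of the 10 members in each rat, on a log axis, with CL rats in blue, FL rats in red, a marker shape for each rat and a line at each group mean (n = 3). Loxl1, Loxl2, Plod1, Plod2, Serpinh1 and Pcolce do not overlap between the groups, and FL2 is the lowest FL rat for 8 of the 10 genes but the highest for Pcolce.

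Pcolce (ENSRNOG00000025001, chromosome 12) encodes procollagen C-endopeptidase enhancer, a secreted protein that speeds the removal of the C-terminal propeptide. CL5 had 2.59, CL6 4.12 and CL7 5.20 FPKM of it, against 44.84 in FL2, 19.03 in FL5 and 29.80 in FL12. The lowest FL rat was well above the highest CL rat, and FL2 stood highest. The means were 3.97 ± 1.31 and 31.2 ± 12.96 FPKM (SD, n = 3). The log2 fold change was 2.91 (standard error 0.34, limma adjusted p = 0.00339), or 2.62 above the median of the tested genes. Pcolce was the member with the highest mean in the FL group, while 4 members exceeded its mean in the CL group.

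Plod2 (ENSRNOG00000030183, chromosome 8) encodes lysyl hydroxylase 2, which hydroxylates lysines of the collagen telopeptides and so directs crosslinks towards the stable pyridinoline type. It was low in the controls, with 0.30 FPKM in CL5, 0.51 in CL6 and 0.58 in CL7. The FL rats had 1.84 FPKM (FL2), 4.56 FPKM (FL5) and 4.80 FPKM (FL12). No FL rat came near the controls, although FL2 was far below the other 2. With means of 0.463 ± 0.146 and 3.73 ± 1.64 FPKM (SD, n = 3), the log2 fold change was 2.69 (standard error 0.39, limma adjusted p = 0.00544). It became 1.63 with a pseudocount of 1, in which low values count for less, and the gene was still called.

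Plod1 (ENSRNOG00000007763, chromosome 5), the gene of lysyl hydroxylase 1, acts on lysines within the helix. Its FPKM were 10.72 in CL5, 11.09 in CL6, 9.96 in CL7, 12.44 in FL2, 14.30 in FL5 and 15.78 in FL12. The FL rats were above the CL rats without overlap, but by a small margin. The log2 fold change of 0.41 had a standard error of 0.12 and was not called (limma adjusted p = 0.0545), and relative to the median of the tested genes it was 0.12. Without FL2 it was 0.50 with an adjusted p of 0.0258, and the alternatives gave adjusted p-values from 0.0258 to 0.256.

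Lysyl oxidases are copper enzymes that oxidize lysine residues of collagen and elastin to aldehydes, the step that starts crosslinking. Loxl1 (ENSRNOG00000008680, chromosome 8), best known for its part in elastic fibres, stood at 0.21 FPKM in CL5, 0.59 in CL6 and 0.23 in CL7. In FL2 it was at 1.84 FPKM, in FL5 at 4.10 and in FL12 at 6.34. It was low in each control and more than 3 times the highest control in each FL rat, with FL12 the highest. The means were 0.343 ± 0.214 and 4.09 ± 2.25 FPKM (SD, n = 3), with a log2 fold change of 3.18 (standard error 0.48, limma adjusted p = 0.00614). With a pseudocount of 1 it became 1.83, still called. It exceeded the fold change of Pcolce here, but not with a pseudocount of 1 (2.65 for Pcolce) or without CL7, FL5 or FL12.

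Loxl2 (ENSRNOG00000016758, chromosome 15) encodes a lysyl oxidase that crosslinks collagen, including type IV collagen of basement membranes. Rats CL5, CL6 and CL7 showed 3.38, 2.63 and 2.83 FPKM, and rats FL2, FL5 and FL12 showed 5.06, 9.93 and 7.73 FPKM. The controls were close together and each FL rat lay above them, FL5 the most. The log2 fold change was 1.29 (standard error 0.24, limma adjusted p = 0.0119), from 2.95 ± 0.388 to 7.57 ± 2.44 FPKM (SD, n = 3). It fell just short of 2-fold with quantile normalization (log2 fold change 0.98, adjusted p = 0.0394, with 0.00358 to 0.0497 as the lowest and highest over the alternatives).

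Lox (ENSRNOG00000014426, chromosome 18), which encodes the founding lysyl oxidase of the family, varied most within both groups among the 9 tested members. There were 0.88 FPKM in CL5, 3.14 in CL6 and 2.31 in CL7, and 1.59 FPKM in FL2, 5.86 in FL5 and 5.71 in FL12. FL5 and FL12 exceeded the controls, but FL2 was below CL6 and CL7, so that the groups overlapped. Within each group the highest rat had over 3 times the level of the lowest, 3.57 times in the CL and 3.69 times in the FL group. The log2 fold change of 0.98 (standard error 0.58) had a 95% confidence interval from -0.35 to 2.31 and was not called (limma adjusted p = 0.26). Without FL2 it was 1.58 and without CL5 0.47, and the adjusted p ran from 0.0539 to 0.586 over the alternatives, above the threshold in all 14.

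Serpinh1 (ENSRNOG00000016831, chromosome 1) encodes Hsp47, the collagen-specific chaperone of the endoplasmic reticulum. CL5, CL6 and CL7 lay between 7.78 and 9.18 FPKM (9.18, 7.78 and 8.27), and FL2, FL5 and FL12 had 10.93, 25.14 and 17.47 FPKM. All 3 FL rats were above the controls, FL2 by the least. The means were 8.41 ± 0.710 and 17.8 ± 7.11 FPKM (SD, n = 3). The log2 fold change of 0.9995 (standard error 0.27, limma adjusted p = 0.0385) passed the adjusted p and missed the 2-fold limit by less than 0.01. Without FL2 the gene was called (log2 fold change 1.31, adjusted p = 0.00565), and also with a pseudocount of 0.01 (1.01, adjusted p = 0.0406). When any 1 other rat was left out the adjusted p was between 0.0812 and 0.115. It was 0.0898 with median scaling, 0.104 with quantile normalization, 0.0757 without trend and 0.0601 with no filter, so it stayed under 0.05 in 5 of the 14 alternatives.

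Prolyl 4-hydroxylase is a tetramer whose catalytic alpha subunits come from P4ha1, P4ha2 and P4ha3. P4ha1 (ENSRNOG00000050655, chromosome 20) had 13.16 FPKM in CL5, 9.95 in CL6, 10.40 in CL7, 9.71 in FL2, 12.14 in FL5 and 10.70 in FL12. P4ha2 (ENSRNOG00000033663, chromosome 10) had 5.79, 5.19 and 5.64 FPKM in the same CL rats, and 5.17, 5.55 and 6.01 FPKM in the FL rats. For both genes the rats of the groups were interleaved, and FL2 was the lowest of the FL rats. The limma log2 fold changes were -0.04 for P4ha1 (standard error 0.15, adjusted p = 0.878, 95% confidence interval -0.38 to 0.30) and 0.01 for P4ha2 (standard error 0.12, adjusted p = 0.969, interval -0.28 to 0.29). Their signs were not stable, since P4ha2 stood at -0.21 after median scaling and at -0.28 after quantile normalization, and P4ha1 became 0.09 without CL5 and 0.04 without FL2. The same 2 scalings put P4ha1 at -0.26 and -0.25. Relative to the median of the tested genes the values were -0.33 and -0.28.

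P4ha3 (ENSRNOG00000017118, chromosome 1) was nearly absent from these libraries. It was at 0.08, 0.04 and 0.10 FPKM in the 3 CL rats, and at 0.06, 0.16 and 0.04 FPKM in the 3 FL rats. Values this low rest on few reads, the groups overlapped, and the mean over the 6 rats was under the filter.

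**Figure D2:**
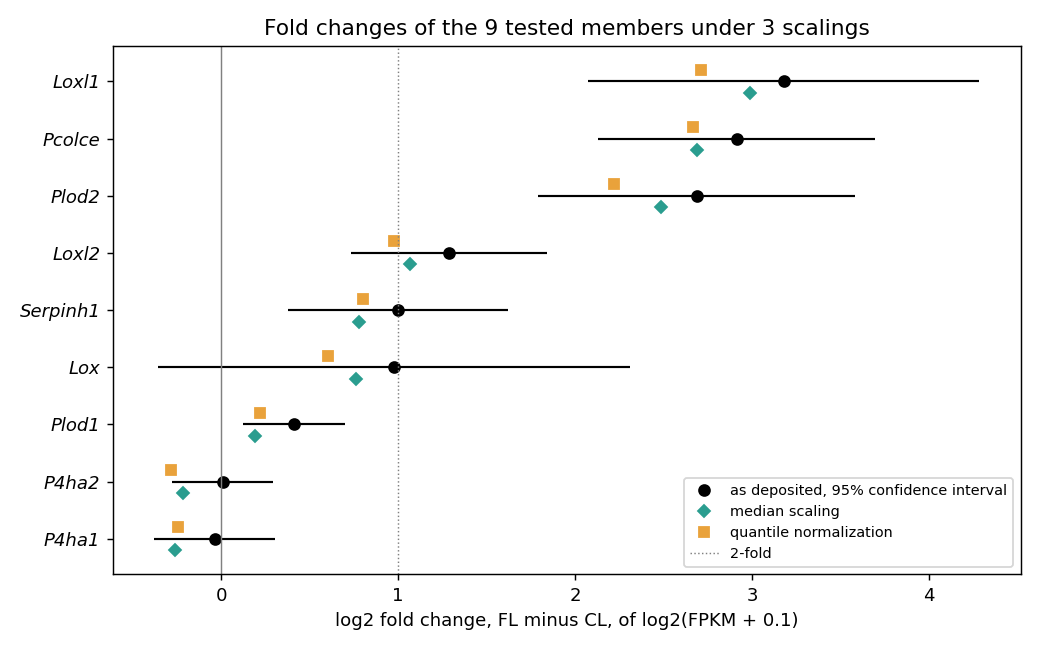
Log2 fold change (FL minus CL) of log2(FPKM + 0.1) for the 9 tested members, with limma's 95% confidence interval for the values as deposited (black), and the fold change after median scaling (green) and quantile normalization (orange). Loxl1, Pcolce and Plod2 lie beyond 2-fold (dotted line) under each of the 3 scalings, Loxl2 under 2 of them, and P4ha2 changes sign.

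The order of the genes by level differed between the groups. In the CL group the means ran from P4ha1 (11.2 FPKM) through Plod1 (10.6), Serpinh1 (8.41), P4ha2 (5.54), Pcolce (3.97), Loxl2 (2.95) and Lox (2.11) to Plod2 (0.463), Loxl1 (0.343) and P4ha3 (0.0733). Neighbours in this order overlapped over the rats except for 4 steps, which were Plod1 over Serpinh1, Serpinh1 over P4ha2, Lox over Plod2 and Loxl1 over P4ha3. In the FL group the order was Pcolce (31.2 FPKM), Serpinh1 (17.8), Plod1 (14.2), P4ha1 (10.9), Loxl2 (7.57), P4ha2 (5.58), Lox (4.39), Loxl1 (4.09), Plod2 (3.73) and P4ha3 (0.0867). There the rats overlapped between neighbours except at Plod1 over P4ha1 and Plod2 over P4ha3. Pcolce stood behind 4 members in the one order and led the other, with a mean above that of 94.7% of the genes in the table in the FL group, against 70.8% in the CL group.

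FPKM are per length, so the isoenzymes of a family can also be given as shares of its sum within each rat, a measure that a single scaling factor per rat leaves as it is, though quantile normalization does not. The 3 prolyl 4-hydroxylase alpha subunits summed to 19.03, 15.18 and 16.14 FPKM in CL5, CL6 and CL7. The sums in FL2, FL5 and FL12 were 14.94, 17.85 and 16.75 FPKM, within the range of the controls but for FL2. P4ha1 made up 64.4% to 69.2% of the sum in the CL and 63.9% to 68.0% in the FL rats (exact permutation test, two-sided p = 0.6). P4ha2 made up nearly all of the rest, and P4ha3 under 1% in each rat.

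The lysyl hydroxylases were read in the same way. Plod2 held 1.76% of the Plod1, Plod2 and Plod3 sum in CL5, 2.80% in CL6 and 3.56% in CL7, and 8.47% in FL2, 16.9% in FL5 and 17.8% in FL12. Its share was higher in each FL rat than in any CL rat, by 11.7 percentage points on average. The share of Plod1 was 60.9% to 62.8% in the CL and 52.8% to 58.4% in the FL rats, and that of Plod3, lysyl hydroxylase 3, 35.3% to 36.3% and 23.9% to 34.3%. Both were lower in the FL rats without overlap, although neither gene had a lower FPKM mean there. Plod3 had a log2 fold change of 0.25 (limma adjusted p = 0.209), and -0.03 after quantile normalization. The sum of the 3 was 17.2 ± 0.972 FPKM over the CL rats and 25.3 ± 3.07 FPKM over the FL rats (SD, n = 3, exact permutation p = 0.1). For each of these 3 shares the exact permutation test gave p = 0.1, the smallest that 3 rats against 3 allow, and 0.275 after Benjamini-Hochberg adjustment over 11 shares.

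Among the 5 lysyl oxidase genes, Loxl1 held 2.16% of the sum in CL5, 5.22% in CL6 and 2.32% in CL7. In FL2, FL5 and FL12 it held 9.97%, 16.3% and 27.7%. The FL rats were higher without overlap (exact permutation p = 0.1, adjusted 0.275). Loxl4 took the greatest share in each control (51.3%, 41.9% and 42.8% in CL5, CL6 and CL7) and also in FL2 (51.6%), but 17.9% in FL5 and 10.8% in FL12. FL2 thus lay with the controls for Loxl4, and between the controls and the other FL rats for Loxl1. The groups overlapped in the shares of Loxl4 (exact permutation p = 0.4), Lox (p = 0.8), Loxl2 (p = 0.5) and Loxl3 (p = 0.8). With 3 rats against 3, no share could reach a p under 0.05. In FPKM, Loxl4 had 4.98, 4.74 and 4.25 in the CL rats and 9.53, 4.50 and 2.47 in FL2, FL5 and FL12. The family sum was 10.3 ± 0.862 FPKM in the CL and 22.2 ± 3.39 FPKM over the FL rats (SD, n = 3, exact permutation p = 0.1), without overlap.

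**Figure D3:**
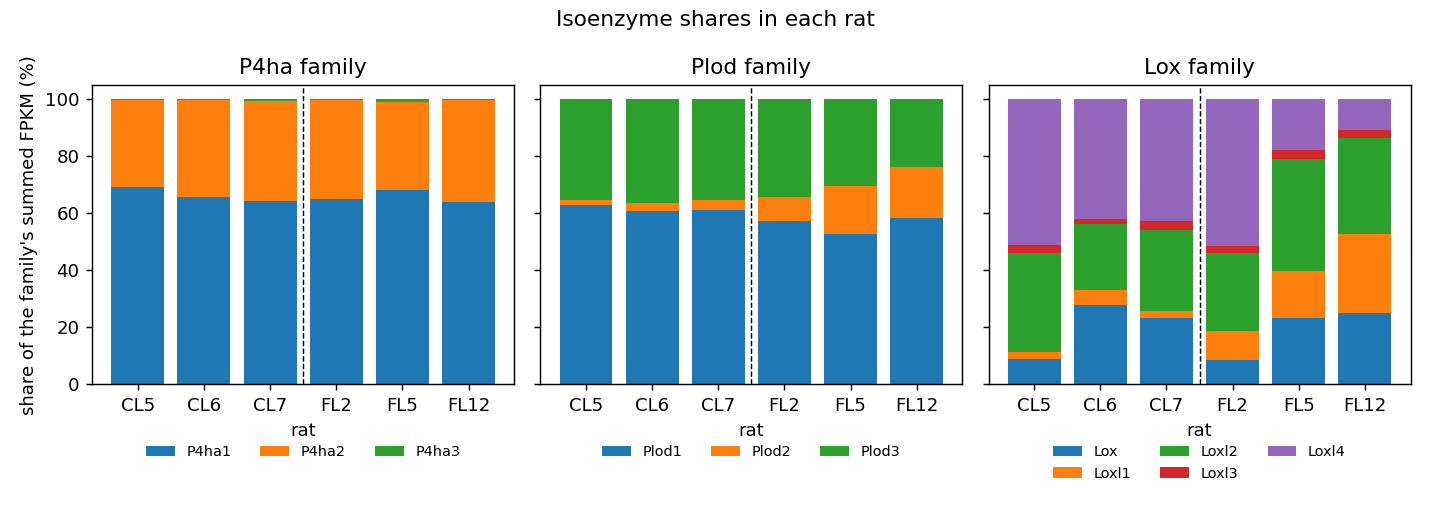
Share of each isoenzyme gene in the summed FPKM of its family, in percent, stacked for each rat, with the CL rats to the left and the FL rats to the right of the dashed line. The P4ha1 and P4ha2 shares are alike in the 6 rats, the Plod2 and Loxl1 shares are higher in the FL rats, and Loxl4 holds 51.6% in FL2 but 10.8% in FL12.

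The substrates of these enzymes include the fibrillar collagens. Of the 8 fibrillar collagen genes listed, 6 were tested and 5 upregulated, beside 9.29% of the tested genes. The median log2 fold change of the 6 was 2.21 (6 were upregulated without FL2, and 3 when any 1 other rat was left out). Col3a1, the type III collagen gene, had 46.54, 51.80 and 48.65 FPKM in the 3 CL rats, and 140.46, 341.67 and 338.60 FPKM in the 3 FL rats (log2 fold change 2.37, limma adjusted p = 0.0049). Col1a1, the type I alpha 1 chain, went from 2.12, 3.77 and 2.12 FPKM to 17.00, 101.22 and 73.73 FPKM in the same order (log2 fold change 4.24, limma adjusted p = 0.00519). As for most members, FL2 was the lowest FL rat for both collagens. Col5a1, Col5a2 and Col11a1 were upregulated too, with log2 fold changes of 1.35, 2.14 and 2.27. Col11a1 had at most 0.03 FPKM in the CL rats and passed the filter only through the FL rats. The count of 5 and the median of 2.21 include it, so they lean towards higher values in the FL group. The fold change of Col11a1 is set by the pseudocount (0.58 with 1 and 4.41 with 0.01). The calls of Col5a1 and Col11a1 were lost without CL5, CL6, CL7, FL5 or FL12, with adjusted p-values from 0.0692 to 0.102 and from 0.0746 to 0.121. Col5a1 was also not called with median scaling (adjusted p = 0.0534), quantile normalization (0.0755) or no trend (0.0605), nor Col11a1 with quantile normalization (0.0799) or a pseudocount of 1 (0.061). Col5a3 was not called (log2 fold change 0.83, limma adjusted p = 0.255). Col1a2, the partner of Col1a1 in type I collagen, was listed at 0.01 to 0.02 FPKM in the CL and 0.03 to 0.18 FPKM in the FL rats, and with Col11a2 it was below the filter. How the table comes to list Col1a2 so low was not tested.

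Each member was also set beside collagen within the same rat, as log2(FPKM + 0.1) minus the mean of that of Col1a1, Col1a2 and Col3a1. P4ha1 was 2.56, 1.80 and 2.20 above this reference in the 3 CL rats, and 0.53, -0.80 and -0.79 relative to it in FL2, FL5 and FL12. The difference between the groups was -2.54, with no overlap, or -3.34 with Col1a1 and Col3a1 as the reference and -4.27 with Col1a1 alone. Col1a2, like P4ha3, lies around or below the pseudocount. For P4ha2, P4ha3, Plod1, Lox, Serpinh1 and Loxl2 the FL rats were likewise below the CL rats without overlap, with differences of -2.49, -2.43, -2.09, -1.52, -1.50 and -1.21. P4ha3 being that low, its ratio follows collagen and tells nothing of P4ha3 itself. In FPKM the log2 fold change of P4ha1 was -0.04 and the median of the tested genes 0.29, so a gene of unchanged FPKM falls too. How many of the tested genes lie lower on this scale was not derived, so the 7 are no finding particular to the members. Each exact permutation p of the 7 was 0.1, the smallest possible (0.143 adjusted over 10 members), so none passed a threshold of 0.05. Loxl2, though upregulated, was among them.

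Loxl1, Plod2 and Pcolce overlapped between the groups on this scale. Their differences of 0.68, 0.18 and 0.41 (exact permutation p = 0.2, 0.6 and 0.8) had no fixed sign. They became -0.12, -0.62 and -0.39 with Col1a1 and Col3a1 as the reference, chosen after Col1a2 was seen to be near 0, and -1.06, -1.55 and -1.32 with Col1a1 alone. The 7 other members kept their sign with either reference. Pcolce had the widest spread, at 2.73 in FL2 and -0.16 in FL5, since FL2 had the most Pcolce and the least collagen of the FL rats.

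**Figure D4:**
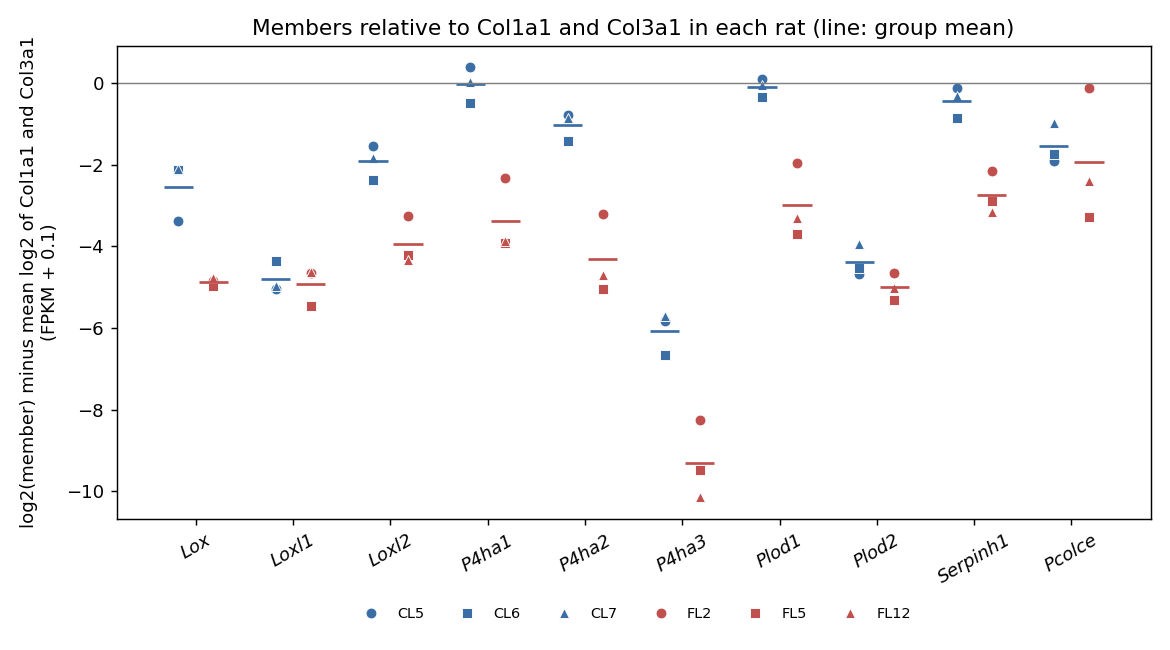
Log2(FPKM + 0.1) of each member minus the mean of Col1a1 and Col3a1 in the same rat, with CL rats in blue, FL rats in red and lines at the group means (n = 3). With this reference the FL rats lie below the CL rats without overlap for 7 members, and Loxl1, Plod2 and Pcolce overlap. The share of all tested genes that lie lower was not derived.

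Other genes of collagen biosynthesis were taken from a list of 27, of which 26 were in the table and 24 tested. Of these, 5 were upregulated and 0 downregulated, beside 9.29% and 0.935% of the tested genes. At an unadjusted p under 0.05 in limma, 13 were higher and 0 lower (31.5% and 4.04% of the tested genes). The median log2 fold change of 0.49 lay 0.20 above that of the tested genes. Adamts2, which cleaves the N-terminal propeptide of procollagen, had 0.77, 0.71 and 0.67 FPKM in the 3 CL rats, and 2.54, 6.94 and 7.03 FPKM in the 3 FL rats. FL2 again lay between the controls and the other FL rats (log2 fold change 2.64, limma adjusted p = 0.00499). Fkbp10, a prolyl isomerase of the endoplasmic reticulum needed for telopeptide lysine hydroxylation, had 0.34, 0.26 and 0.25 FPKM in the CL rats and 0.96, 2.55 and 2.41 FPKM in the 3 FL rats. It had the same order of FL2 below FL5 and FL12 (log2 fold change 2.33, limma adjusted p = 0.0073).

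The other 3 calls were less firm. Crtap, a subunit of the prolyl 3-hydroxylase complex, had a log2 fold change of 1.17 (limma adjusted p = 0.0145), P3h3, a prolyl 3-hydroxylase family member, one of 1.01 (adjusted p = 0.0301), and Adamts14, another procollagen N-proteinase, one of 1.19 (adjusted p = 0.0439). P3h3 and Adamts14 were not called without CL5, CL6, CL7, FL5 or FL12 (adjusted p from 0.0757 to 0.0995 and from 0.0963 to 0.138), and Crtap not without CL5 (log2 fold change 1.08, adjusted p = 0.0517) or FL5 (0.94, adjusted p = 0.0395). None of the 3 was called with median scaling, quantile normalization or a pseudocount of 1, nor P3h3 without trend (0.0575) or Adamts14 with no filter (0.0598). Without FL2 the list held 7 calls, without CL5 or FL5 it held 2, and without CL6, CL7 or FL12 it held 3.

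The most abundant genes of the list were not called. P4hb, the beta subunit of prolyl 4-hydroxylase and a disulfide isomerase, had 246.09, 218.61 and 204.46 FPKM in the 3 CL rats, and 419.55, 352.01 and 256.00 FPKM in the 3 FL rats. Here FL2 was the highest rat, and the groups did not overlap (log2 fold change 0.59, limma adjusted p = 0.0855). Ppib, a prolyl isomerase of the same compartment, was also highest in FL2 (log2 fold change 0.49, limma adjusted p = 0.137). Mia3 and Sec24d, which serve the export of procollagen from the endoplasmic reticulum, had log2 fold changes of 0.10 and 0.28 (limma adjusted p = 0.54 and 0.258). Mia3 stood at -0.13 after median scaling and -0.03 after quantile normalization, and Sec24d at 0.05 and 0.13. The same 2 scalings put P4hb at 0.37 and 0.71, and Ppib at 0.27 and 0.50. Colgalt1, a collagen galactosyltransferase picked after its values were seen, passed the adjusted p alone (log2 fold change 0.48, limma adjusted p = 0.0485), but in only 4 of the 14 alternatives. It had 0.25 with median scaling (adjusted p = 0.249) and 0.26 with quantile normalization (0.252).

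Hsp47 shares its compartment with general chaperones, which were read beside Serpinh1. Of 12 chaperone genes of the endoplasmic reticulum, 0 were called by limma in either direction. At an unadjusted p under 0.05, 0 were higher and 1 was lower (31.5% and 4.04% of the tested genes). Hspa5, the chaperone BiP, had 251.33, 223.86 and 204.59 FPKM in the 3 CL rats, and 421.46, 219.49 and 187.75 FPKM in the 3 FL rats. FL2 was far above the other 5 rats, FL5 lay among the controls, and FL12 was below them. Of the 12 genes, 11 were highest in FL2, among them Calr (985.18 FPKM), Hsp90b1 (347.09 FPKM) and Pdia3 (308.44 FPKM), and all 12 were lowest of the FL rats in FL12. Serpinh1 differed from them within the FL group, being lowest in FL2, as were 8000 of the 14864 tested genes. Of the FL rats, FL2 was highest for 3354 of the tested genes and FL12 lowest for 3690. The chaperone gene that was not highest in FL2 was Dnajb9, named after its values were seen. It was lower in the FL group without overlap (log2 fold change -0.52, limma adjusted p = 0.047). Its adjusted p was under 0.05 in 6 of the 14 alternatives and highest without CL7 (0.156).

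Plod2, P4ha1, P4ha2, Lox and Loxl2 are known targets of hypoxia-inducible factors, so a list of 14 hypoxia-induced genes was read beside them. Of the 12 tested, 4 were upregulated and 0 downregulated, beside 9.29% and 0.935% of the tested genes. At an unadjusted p under 0.05 in limma, 5 were higher and 1 lower (31.5% and 4.04% of the tested genes). The median log2 fold change of the 12 was 0.24, or 0.04 after median scaling and -0.17 after quantile normalization. Hk2, hexokinase 2, had 0.44, 0.41 and 0.38 FPKM in the 3 CL rats, and 1.57, 2.01 and 1.37 FPKM in the 3 FL rats (log2 fold change 1.76, limma adjusted p = 0.00436). Ndrg1 had 1.29, 1.39 and 1.53 FPKM in the CL rats and 3.00, 4.16 and 4.87 FPKM in the 3 FL rats (log2 fold change 1.43, limma adjusted p = 0.00531). In both genes each FL rat was above each control. Pfkfb3, a regulator of glycolysis, and Adm, the adrenomedullin gene, had log2 fold changes of 1.08 and 1.16 (limma adjusted p = 0.0191 and 0.0309). Under median scaling or quantile normalization 2 of the 4 calls remained, without Adm and Pfkfb3, and with a pseudocount of 1 only Ndrg1, since Hk2 too was below 2-fold (log2 fold change 0.90). Adm was not called without CL5, CL6, CL7, FL5 or FL12 (adjusted p from 0.0579 to 0.103) or with no filter (0.0557), nor Pfkfb3 without CL5, CL6, FL5 or FL12 (0.0586 to 0.0703). The abundant genes of the list went otherwise. Ldha, lactate dehydrogenase A, was lower in the FL rats without overlap (log2 fold change -0.41, limma adjusted p = 0.0653). With median scaling it was at -0.64 (adjusted p = 0.0279). Vegfa (-0.18, or -0.40 with median scaling) and Pgk1 (-0.16, or -0.38 with median scaling and 0.04 without FL2) overlapped. So did Bnip3 (0.03, but -0.19 with median scaling and -0.12 with quantile normalization).

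Hydroxylases of collagen need ascorbate and iron. Of 6 genes for their supply, 0 were called by limma, and 2 were higher and 0 lower at an unadjusted p under 0.05, much as among the tested genes (31.5% and 4.04%). Gulo, whose enzyme makes the last step of ascorbate synthesis in the rat, had 171.68, 153.50 and 125.33 FPKM in the 3 CL rats, and 98.03, 127.12 and 131.01 FPKM in the 3 FL rats. The groups overlapped at CL7 (log2 fold change -0.34, limma adjusted p = 0.206). Rgn, another gene of ascorbate synthesis, Slc39a14, a metal transporter, and Tfrc, the transferrin receptor, had log2 fold changes of 0.27, 0.34 and 0.0043 (limma adjusted p = 0.272, 0.198 and 0.992), of which Tfrc turned negative with both scalings (-0.22 and -0.21). Slc23a2, an ascorbate transporter named after its values were seen, passed the adjusted p alone (log2 fold change 0.57, limma adjusted p = 0.0498), but in only 3 of the 14 alternatives. Median scaling gave 0.36 (adjusted p = 0.174) and quantile normalization 0.07 (0.799).

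The cell types that could carry these RNAs were read from marker lists. The tissue was liver by its markers, with 24148.60 to 33392.00 FPKM of Alb, the albumin gene. The 7 hepatocyte genes summed to 38991 to 41436 FPKM in the CL and 29782 to 32773 FPKM in the FL rats, most of it Alb, and 0 of the 7 were called by limma (2 were higher and 0 lower at an unadjusted p under 0.05, near the 31.5% and 4.04% of the tested genes). Without overlap, 3 of the 7 were lower (Alb, Ttr and Hnf4a) and 1 higher, beside 4.78% and 35.7% of the tested genes. The direction depended on the scaling. Alb had a log2 fold change of -0.38, but 0.49 with quantile normalization, and the median of the list went from -0.21 to 0.21. Of 11 stellate cell or myofibroblast genes, 6 were upregulated (8 without FL2), beside 9.29% of the tested genes. They were Des, Pdgfrb, Postn, Lum, Dcn and Col1a1. At an unadjusted p under 0.05 in limma, 10 of the list were higher and 0 lower, beside 31.5% and 4.04% of the tested genes. Postn had at most 0.07 FPKM in the CL rats and passed the filter only through the FL rats. Lum was not called without CL6, CL7, FL5 or FL12 (limma adjusted p from 0.0549 to 0.0703), nor with quantile normalization (0.0529). Their list summed to 44.56, 44.85 and 39.77 FPKM in the 3 CL rats, and 75.58, 226.03 and 177.72 FPKM in the 3 FL rats, with Col1a1 the most abundant in each FL rat and Tagln in each CL rat. All 11 genes were lowest of the FL rats in FL2, as were 8 of the 10 members, against 8000 of the 14864 tested genes. None of the 11 was at 0 in every rat, and Lrat, a marker of quiescent stellate cells, overlapped (log2 fold change -0.07, limma adjusted p = 0.758). The part of cell numbers in the members' values was not tested.

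Of the other markers, 3 of 8 macrophage genes were upregulated (Cd68, Csf1r and Marco), beside 9.29% of the tested genes. At an unadjusted p under 0.05 in limma, 7 of the 8 were higher and 0 lower (31.5% and 4.04% of the tested genes). Without overlap 6 were higher and 0 lower (35.7% and 4.78%). The list sums were 130.90 to 139.81 FPKM in the CL and 294.82, 282.81 and 173.46 FPKM in the 3 FL rats. Clec4f was the most abundant of them in the controls and FL5, but Marco was in FL2 and Cd68 in FL12. Csf1r fell short of 2-fold without FL5 (log2 fold change 0.99, limma adjusted p = 0.0153), with median scaling (0.91) and with quantile normalization (0.93), so that 2 genes of the list were called in each case. Of 6 tested endothelial genes, 1 was upregulated, Vwf, a call lost without CL5, CL6, CL7, FL5 or FL12 (adjusted p from 0.0651 to 0.0797), and likewise without trend, with either scaling or with a pseudocount of 1. At an unadjusted p under 0.05 in limma, 3 of the 6 were higher and 0 lower (31.5% and 4.04% of the tested genes). That list summed to 60.24 to 67.96 FPKM in the CL and 73.89 to 82.82 FPKM in the FL rats, with Kdr the most abundant in 5 rats and Lyve1 in FL12. No gene was called by limma among 3 smooth muscle, 5 cholangiocyte, 5 tested lymphocyte and 2 mesothelial genes, of which 0, 0, 2 and 0 were higher and 0 lower at an unadjusted p under 0.05 (31.5% and 4.04% of the tested genes). Their sums were low, at 1.57 to 6.51, 5.26 to 10.73, 1.35 to 5.66 and 0.65 to 3.43 FPKM over the 6 rats. Myh11, Epcam and Msln led theirs in each rat, while Cd8a led the lymphocyte list in CL5 and FL5 and Cd79a in the other 4. The smooth muscle sum was 6.51 FPKM in FL5 and 3.66 in FL12, against 1.57 in FL2 and 1.67 to 2 in the controls. Without FL12, 1 lymphocyte gene was called higher and 1 mesothelial gene lower, and without FL2, 1 smooth muscle and 1 hepatocyte gene higher. Their part in the members' values was not tested.

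The 5 genes with the pattern nearest to the median of the 10 members were sought among 10526 others whose mean reached 1 FPKM, by the root mean square difference of log2(FPKM + 0.1), centred on the CL mean, over the 6 rats. The median pattern stood at 0.30 in FL2, 1.58 in FL5 and 1.21 in FL12. Tagln (difference 0.0752), the smooth muscle protein transgelin, came nearest, with 13.06, 12.99 and 12.40 FPKM in the 3 CL rats, and 14.83, 42.70 and 29.44 FPKM in the 3 FL rats. Its controls were nearly equal and FL2 barely exceeded them. Anxa5 (0.0767), Setd7 (0.0943), P3h3 (0.104) and AABR07026311.1 (0.11) followed. For Lox alone the nearest genes were less alike. They were Top2a (0.34), Dctpp1 (0.369), Per1 (0.403), Cdc20 (0.407) and Arhgap10 (0.412). Top2a, a topoisomerase of dividing cells, had 0.61, 1.31 and 0.89 FPKM in the 3 CL rats, and 0.99, 3.85 and 3.10 FPKM in the 3 FL rats, and so shared with Lox the low values of CL5 and FL2.

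Promoters were compared because Loxl1, Plod2 and Pcolce were upregulated and P4ha1 and P4ha2 were not. RefSeq promoters (build GRCr8) were matched for 8 of the 10 members, without Lox and Loxl2, and the 250 bases upstream of each gene's start were searched on both strands. The hypoxia response element was searched by its core ACGTG and by its other core form GCGTG. The GC box was read as GGGCGG, the CCAAT box by the letters of its name, the TATA box as TATAAA and the AP-1 element as TGANTCA. Overlapping matches were each counted. A hypoxia core was found in 5 of the 8 members and in 36.7% of 33469 promoters, with ACGTG in 16.57% and the form GCGTG in 25.89% of them. P4ha2 had 5 cores, Plod2 4, P4ha1 2, Plod1 and Pcolce 1 each, and Loxl1, P4ha3 and Serpinh1 0, so that called and uncalled members were found on both sides. A GC box was found in 6 of the 8, and in 30.47% of the promoters. The CCAAT box, the TATA box and the AP-1 element matched 0 of the 8, and 34.02%, 12.93% and 6.34% of the promoters. The GC content ran from 56.0% for Pcolce to 74.8% for Plod2, above the median promoter (51.2%) in each of the 8. The last 150 bases before the start are printed for Loxl1, Plod2 and Pcolce, the upregulated members with a matched promoter, and for P4ha1 and P4ha2, read along the gene's strand, with matches on either strand in capitals. In these windows no matches share a base. They lie at chr8:67612225-67612374 (minus strand) for Loxl1, chr8:101964168-101964317 (plus) for Plod2, chr12:24720822-24720971 (plus) for Pcolce, chr20:27844896-27845045 (plus) for P4ha1 and chr10:38743744-38743893 (plus) for P4ha2. A match is a run of letters and says nothing of binding.
Loxl1: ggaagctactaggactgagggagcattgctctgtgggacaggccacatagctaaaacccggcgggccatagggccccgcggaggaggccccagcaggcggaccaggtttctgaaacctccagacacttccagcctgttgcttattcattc
Plod2: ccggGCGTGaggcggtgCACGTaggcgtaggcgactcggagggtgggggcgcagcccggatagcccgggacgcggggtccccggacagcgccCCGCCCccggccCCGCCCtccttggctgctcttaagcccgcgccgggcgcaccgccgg
Pcolce: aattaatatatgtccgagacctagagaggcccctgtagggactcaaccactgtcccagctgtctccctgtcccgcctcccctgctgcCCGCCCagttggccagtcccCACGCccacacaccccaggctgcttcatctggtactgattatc
P4ha1: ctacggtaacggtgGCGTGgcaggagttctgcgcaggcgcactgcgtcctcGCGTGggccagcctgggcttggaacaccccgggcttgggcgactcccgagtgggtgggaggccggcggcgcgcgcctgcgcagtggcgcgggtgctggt
P4ha2: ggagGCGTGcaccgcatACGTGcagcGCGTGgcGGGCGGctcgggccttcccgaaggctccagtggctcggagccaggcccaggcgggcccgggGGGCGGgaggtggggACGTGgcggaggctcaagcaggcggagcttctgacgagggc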

How the data were processed

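Ribosomal RNA was removed and total liver RNA of 6 rats was sequenced. The authors trimmed the reads, aligned them with TopHat2 (named in the submitters' processing notes) with at most 4 mismatches, and deposited FPKM per gene with 2 decimals and no pooling. The notes name GRCh38, while the gene identifiers are rat Ensembl ones. Groups came from the labels. Scaling between rats is not given in the sources used here, and 2 columns of values were not used. Read counts were not used, and no absolute depth of each rat was derived. By the steps in low U6 gene values, relative depth was 0.656 to 1 for CL and 0.667 to 0.724 for FL rats.

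From the FPKM, log2(FPKM + 0.1) was fitted with limma 3.58.1 (R 4.3.3, prior variance following the mean) over 14864 genes, with Benjamini-Hochberg adjustment over these genes. Standard errors and confidence intervals are limma's, and error terms after means are SDs over 3 rats, which are separate animals. Shares and log2 ratios were compared by two-sided exact permutation tests (scipy 1.17.1). The procedure was tested on simulated data. As alternatives, the pseudocount was 1 or 0.01, the filter was dropped or set to a mean of 1 FPKM, and the rest were median scaling over 9201 genes, quantile normalization, no trend, a robust prior, no fold limit, other collagen references, and leaving out each rat. The text names the 10 members, the called genes of each list, up to 4 of the most abundant uncalled ones and the 5 genes of nearest pattern. Outside this rule it names Plod3, Loxl3 and Loxl4 for the family shares, Hnf4a, and Colgalt1, Dnajb9 and Slc23a2, picked after their values were seen. The members and lists were chosen with earlier results of these data known.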

Additional observations from a re-analysis of the deposited data

How the results depend on the processing

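The numbers of members called were 3 to 5 upregulated and 0 downregulated under each alternative, and Loxl1, Plod2 and Pcolce were called in all 14 fits besides the one reported. Without 1 rat at a time the members called ran from 4 to 5, the further biosynthesis genes from 2 to 7, and the tested genes from 740 to 1831 upregulated and from 81 to 160 downregulated. Further biosynthesis genes numbered 2 with median scaling, quantile normalization or a pseudocount of 1. Among the tested genes, 824 were upregulated and 180 downregulated with median scaling, 453 and 231 with quantile normalization, 462 and 72 with a pseudocount of 1, and 2518 and 288 with no fold limit. With a mean of at least 1 FPKM, where fewer genes were tested, 854 were upregulated. The log2 fold change of P4ha1 turned positive without CL5 (0.086) and without FL2 (0.04), and ran from -0.12 to 0.086 without 1 rat at a time. That of P4ha2 turned negative with median scaling (-0.21), with quantile normalization (-0.28), without CL6 (-0.037) and without FL12 (-0.046), and ran from -0.046 to 0.061 without 1 rat at a time. The cause was not tested.

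With Col1a1 alone as the reference, the log2 ratios to collagen differed between the groups by -3.26 (Lox), -1.06 (Loxl1), -2.95 (Loxl2), -4.27 (P4ha1), -4.23 (P4ha2), -4.17 (P4ha3), -3.83 (Plod1), -1.55 (Plod2), -3.24 (Serpinh1) and -1.32 (Pcolce). With Col1a1 and Col3a1, a choice made after seeing the data, they were -2.32, -0.12, -2.02, -3.34, -3.29, -3.23, -2.89, -0.62, -2.30 and -0.39 in the same order. With Col1a1, Col1a2 and Col3a1 as the reference and a pseudocount of 1, Loxl1 was at -0.28 and Plod2 at -0.48. With that reference and without 1 rat at a time, the ratio of Pcolce ran from -0.41 to 1.03. That of Plod2 ran from 0.019 (without CL5) to 0.39 (without CL7), and that of Loxl1 from 0.50 to 0.93. No paired analysis was possible because the groups share only the number 5, which marks separate rats.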
